A study of Caenorhabditis elegans with 16 samples.

Results

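The genes cpr-1, cpr-2, cpr-3, cpr-4, cpr-5 and cpr-6 of the worm Caenorhabditis elegans encode cathepsin B-like cysteine proteases. They were taken by symbol from a table of read counts and are 6 of its 46904 genes. Of the 6, 5 passed the filter on low counts and were tested, and cpr-2 did not. RNA of whole synchronised worms was counted by 3′ digital mRNA sequencing in 16 libraries, 4 per group. The first group was cua-1(H828Q) worms on plates with 100 µM CuCl2, the second cua-1(H828Q) worms on plates with no added copper, the third control worms on 100 µM CuCl2 and the last control worms with no added copper. Every group was grown for 3 days at 20 °C on agar seeded with Escherichia coli OP50. The product of cua-1 is a copper-pumping ATPase, related to the human pumps mutated in Menkes and Wilson disease. H828Q is a missense change, which counts at the 3′ end of a transcript do not check, and the labels give no name for the control strain.

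Cathepsin B belongs to the papain family of proteases, which cut proteins with a cysteine in the active site. These enzymes are made as inactive proenzymes and are activated in acidic compartments such as the lysosome. In nematodes, cathepsin B-like enzymes of the intestine act in the digestion of food, and cpr-1 is annotated as a gut-specific cysteine proteinase. In the worm, GATA transcription factors such as ELT-2 drive gene expression in the intestine, and cystatins are the natural inhibitors of papain-family enzymes.

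In WBcel235, the assembly that is also called ce11, 5 of the genes lie on chromosome V, spread along it rather than side by side. There cpr-5 (WBGene00000785) covers 1132598 to 1134036 on the minus strand, cpr-4 (WBGene00000784) covers 6614674 to 6615851 on the plus strand, and cpr-1 (WBGene00000781) covers 11975551 to 11976756 on the plus strand. Also on chromosome V, cpr-3 (WBGene00000783) covers 15296834 to 15298700 and cpr-2 (WBGene00000782) covers 16532936 to 16534100, both on the minus strand. The exception is cpr-6 (WBGene00000786), on chromosome X from 6607207 to 6609045 on the plus strand. Each has 1 annotated transcript, between 1065 bp (cpr-2, 3 exons) and 1369 bp (cpr-3, 4 exons) long. The gene with the most exons is cpr-6, with 8, and cpr-4 has the fewest, 2. None overlaps another protein-coding gene. A piRNA gene, 21ur-14330, lies within cpr-4 on the opposite strand, and mif-2, a convergent neighbour, ends 21 bp from cpr-1. Since the strand setting of the counting is not given in the sources used here, reads of such pairs could be mixed. The mean of mif-2 was between 23.1 and 38.4 CPM (counts scaled to a common library size with TMM factors) in the 4 groups.

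Libraries held 1891008 to 4001750 counts. Among them 5 stood apart by having few counts of long transcripts: untreated control replicates 1, 3 and 4, copper-treated control replicate 1 and copper-treated mutant replicate 4. In these 5, called long-depleted here, the median log2 CPM of genes over 3000 bp minus that of genes under 800 bp was between -2.23 and -0.60, against 0.23 to 1.13 in the other 11, and their normalization factors were the lowest of all (0.653 to 0.796, against 1.06 to 1.25). The labels do not mention this split. It leaves the untreated control with a single library of the other kind, so the fold changes of the cpr genes are also given without these libraries.

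The genes cpr-1, cpr-4, cpr-5 and cpr-6 shared one order of group means: copper-treated mutant, untreated mutant, copper-treated control and untreated control, lowest first. The gene cpr-3 did not share it and was highest in the copper-treated mutant. Summed over the 6 genes, the level was 504 ± 59.3 CPM in the copper-treated mutant, 959 ± 76.3 in the untreated mutant, 1434 ± 359 in the copper-treated control and 3317 ± 1663 in the untreated control (SD, n = 4 each). In raw counts they took 0.0423% to 0.0573% of a library in the copper-treated mutant, 0.0966% to 0.123% in the untreated mutant, 0.121% to 0.163% in the copper-treated control and 0.135% to 0.356% in the untreated control. Because whole worms were used, fewer intestinal cells and less RNA per intestinal cell cannot be told apart.

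The gut proteinase gene cpr-1 was counted at 84.4, 95.3, 85.8 and 123 CPM in the copper-treated mutant, at 168, 178, 139 and 198 in the untreated mutant, at 390, 306, 303 and 261 in the copper-treated control and at 1741, 563, 1685 and 473 in the untreated control, replicates 1 to 4 in order. No range of these 4 groups overlaps another. Within the untreated control, replicates 1 and 3 lay far above replicates 2 and 4. Both are long-depleted, as is replicate 4.

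The cathepsin B-like gene cpr-4 followed closely, with 89.6, 125, 108 and 131 CPM in the copper-treated mutant, 161, 174, 179 and 157 in the untreated mutant, then 412, 313, 296 and 226 in the copper-treated control and 1294, 573, 1440 and 378 in the untreated control. Both mutant groups lay apart from each other and from all control libraries. Among controls, the copper-treated replicate 1 was above the untreated replicate 4, so these ranges overlap.

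For cpr-5 the values were 43.7, 60.5, 52.0 and 79.9 CPM in the copper-treated mutant, 160, 183, 229 and 195 in the untreated mutant, then 396, 172, 184 and 170 in the copper-treated control and 1282, 264, 485 and 279 in the untreated control. The copper-treated mutant stood below every other library. The untreated mutant overlapped the copper-treated control, and the highest value in each control group came from a long-depleted library.

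The values of cpr-6, an X-linked member, were 198, 240, 232 and 216 CPM in the copper-treated mutant, 352, 467, 444 and 432 in the untreated mutant, then 744, 509, 592 and 441 in the copper-treated control and 678, 608, 873 and 630 in the untreated control. Here too the copper-treated mutant lay below every other library, and the untreated mutant lay below the untreated control. The untreated control libraries were less spread than for the 3 genes above, with an SD of 121 around a mean of 698 CPM.

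Counted at few reads, cpr-3 had 12.8, 15.1, 10.1 and 13.5 CPM in the copper-treated mutant, 4.19, 4.74, 7.54 and 2.83 in the untreated mutant, then 3.56, 7.62, 2.03 and 8.67 in the copper-treated control and 4.13, 2.80, 3.53 and 9.55 in the untreated control. Each library of the copper-treated mutant was above the other 12, whose 3 groups overlapped. These values rest on 6 to 63 reads per library. For cpr-2 there were 2 reads in the copper-treated mutant, 1 in the untreated mutant and 0 in either control group. A count of 0 allows up to 3 reads over a group, or 0.25 CPM in the copper-treated control and 0.269 CPM in the untreated control, and no difference was detectable at this depth.

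**Figure D1:**
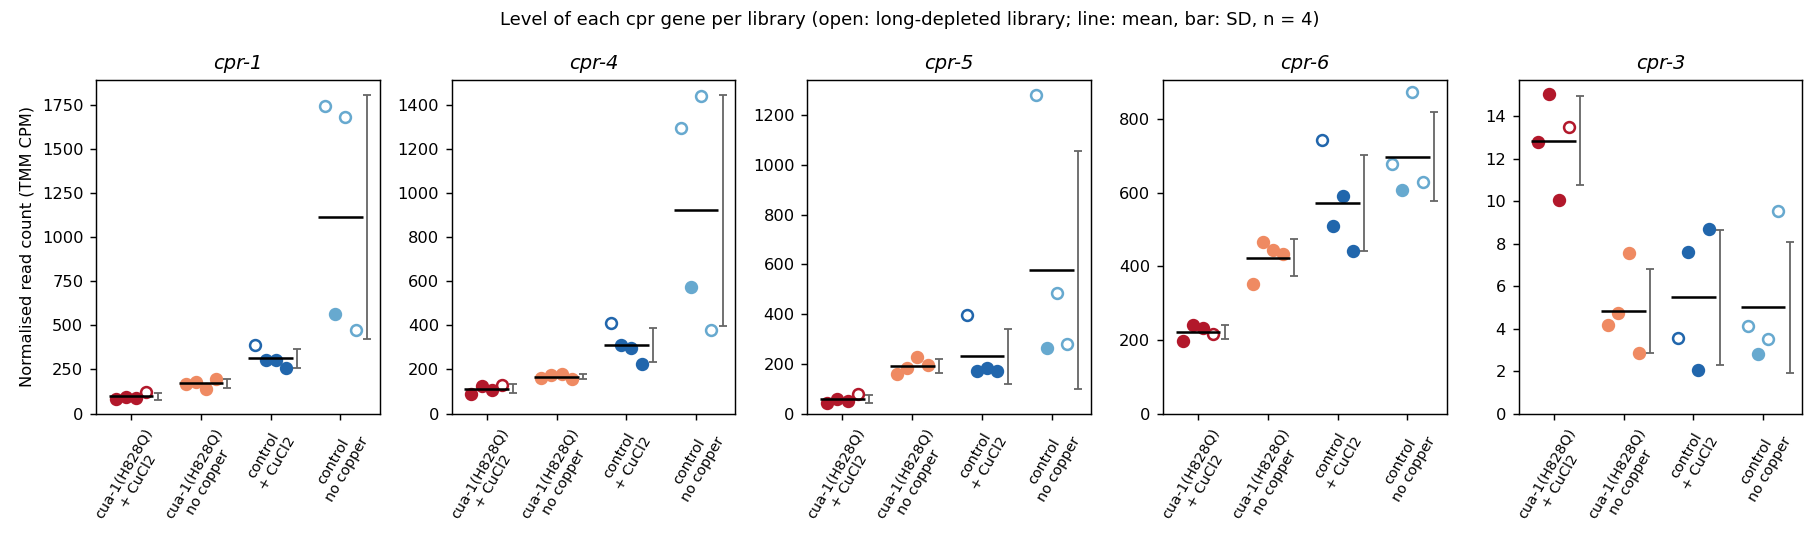
Normalised read count (TMM CPM, linear axes from 0) of the 5 tested cpr genes in each library, with the mean as a line and the SD of 4 libraries as a bar beside it; open symbols are long-depleted libraries. For cpr-1 the 4 copper-treated mutant libraries sit between 84.4 and 123 CPM and the 4 untreated control libraries between 473 and 1741 CPM, while for cpr-3 the copper-treated mutant is the highest group.

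With no added copper, the mutant had lower levels of cpr-1, cpr-4, cpr-5 and cpr-6 than the control. Of the 5 tested genes, 4 were lower in the untreated mutant at an adjusted p under 0.05, and 12.5% of the 9787 genes tested were called lower in that comparison. All 4 also had libraries that did not overlap between the groups, as 12.4% of genes did in that direction. Levels averaged 171 ± 24.5 CPM in the untreated mutant and 1116 ± 691 CPM in the untreated control for cpr-1, and 168 ± 10.5 against 921 ± 524 CPM for cpr-4, 6.53-fold lower (adjusted p = 0.000663) and 5.49-fold lower (adjusted p = 0.000769) by the fitted edgeR model. For cpr-5, which averaged 192 ± 28.6 CPM in the untreated mutant and 577 ± 480 CPM in the untreated control, the log2 fold change was -1.59 ± 0.43 (standard error; 95% interval -2.5 to -0.68; adjusted p = 0.0222, edgeR's quasi-likelihood test). For cpr-6, with 424 ± 50.2 CPM in the untreated mutant and 698 ± 121 CPM in the untreated control, it was -0.72 ± 0.20 (-1.14 to -0.30; adjusted p = 0.0238). The rare cpr-3 averaged 4.83 ± 1.98 CPM in the untreated mutant and 5.0 ± 3.08 CPM in the untreated control, a log2 difference with an interval from -1.13 to 1.13.

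The size of this difference moved with the long-depleted libraries, 3 of which are untreated controls and 0 untreated mutants. Without the 5 libraries, the log2 fold change was -1.77 for cpr-1, -1.82 for cpr-4, -0.51 for cpr-5 and -0.57 for cpr-6, against 1 untreated control library. That library, replicate 2, decides each of these values, and its spread is taken from the remaining groups. With library totals alone in place of TMM factors, the median of all genes was 0.44, against 0.0022 with TMM, and 1215 genes were called higher and 318 lower, against 919 and 1222 with TMM. On that scale cpr-1 (-2.15) and cpr-4 (-1.93) were called, and cpr-5 (-0.97, adjusted p = 0.0511) and cpr-6 (-0.26, adjusted p = 0.329) were not. With the long-short balance as a covariate cpr-5 was -0.46 (adjusted p = 0.323), and without untreated control replicate 1 it was -0.84 (adjusted p = 0.0959). Leaving out untreated mutant replicate 1, 2 or 4 also ended the call of cpr-5 (adjusted p 0.0570 to 0.0632), and leaving out untreated mutant replicate 1 or 4 or untreated control replicate 3 ended that of cpr-6 (0.0591 to 0.0730). Without the filter on low counts cpr-6 was -0.61 (adjusted p = 0.0650).

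On copper plates the same 4 genes were lower in the mutant than in the control, where 0.542% of all genes tested were called lower and 6.39% higher. No library of the mutant overlapped one of the control for any of the 4, as held for 3.16% of genes in that direction. The log2 fold change was -1.97 ± 0.44 for cpr-5 (95% interval -2.89 to -1.04; adjusted p = 0.00985), whose mean was 59.0 ± 15.5 CPM in the copper-treated mutant and 230 ± 110 CPM in the copper-treated control. It was -1.70 ± 0.35 for cpr-1 (-2.44 to -0.95; adjusted p = 0.00663), with 97.2 ± 17.9 CPM in the mutant and 315 ± 53.9 CPM in the control. For cpr-4 it was -1.46 ± 0.33 (-2.17 to -0.75; adjusted p = 0.0115), with 113.3 ± 18.7 against 312 ± 76.5 CPM. The smallest and most precise of these changes was that of cpr-6, at -1.37 ± 0.20 (-1.79 to -0.94; adjusted p = 0.000645), with 222 ± 18.3 CPM in the mutant and 571 ± 130 CPM in the control.

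Few genes had lower values in this comparison: 23 of the 9787 had a lower log2 fold change than cpr-5, 35 than cpr-1, 50 than cpr-4 and 61 than cpr-6. Each of the 4 calls held in all 28 alternative settings, including the fit without the long-depleted libraries, where the values were -1.77 for cpr-5, -1.73 for cpr-1, -1.40 for cpr-4 and -1.23 for cpr-6. In the opposite direction, cpr-3 averaged 12.8 ± 2.09 CPM in the copper-treated mutant and 5.47 ± 3.18 CPM in the copper-treated control. Its libraries did not overlap, as for 11.3% of genes in that direction, but its log2 fold change of 1.22 ± 0.44 (0.30 to 2.13) did not pass (adjusted p = 0.123). Without the long-depleted libraries it was 1.01 and passed (adjusted p = 0.0469). That fit called 1454 of the 9787 genes higher and 834 lower in this comparison, against 625 and 53 with all libraries.

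**Figure D2:**
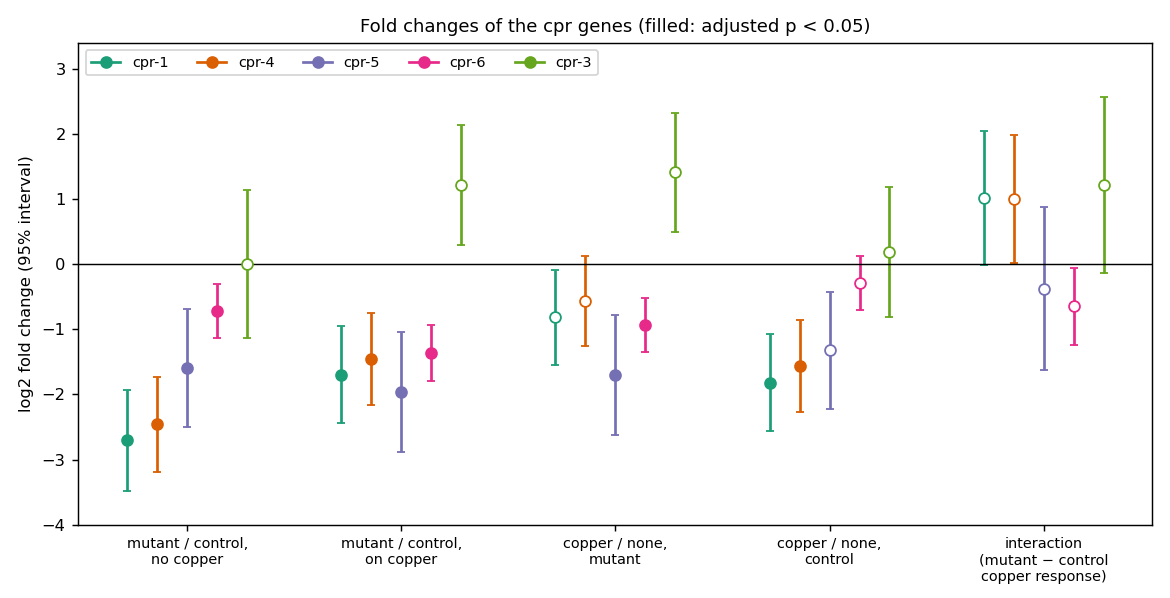
Log2 fold change of each tested cpr gene with its 95% interval in the 4 comparisons and the interaction, where filled symbols passed an adjusted p of 0.05. In both mutant-to-control comparisons cpr-1, cpr-4, cpr-5 and cpr-6 lie below 0 with filled symbols, while cpr-3 lies at 0 without copper and at 1.22 with it.

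On copper, the mutant had lower levels of cpr-5 and cpr-6 than without it. In this comparison 0.46% of genes were called lower by copper and 1.78% higher. The genes cpr-6, at -0.94 ± 0.20 (95% interval -1.36 to -0.51; adjusted p = 0.0158), and cpr-5, at -1.70 ± 0.43 (-2.62 to -0.79; adjusted p = 0.0487), were lower in the copper-treated mutant than in the untreated mutant. For cpr-1 the log2 fold change was -0.81 ± 0.35 (-1.55 to -0.08; adjusted p = 0.342), and for cpr-4 it was -0.57 ± 0.33 (-1.26 to 0.13; adjusted p = 0.516). Neither passed, although for all 4 genes no library of the copper-treated mutant reached the lowest of the untreated mutant, as for 8.49% of genes in that direction. The mean of cpr-3, 12.8 ± 2.09 CPM in the copper-treated mutant and 4.83 ± 1.98 CPM in the untreated mutant, gave 1.41 ± 0.43 (0.50 to 2.31; adjusted p = 0.115), with no overlap, as for 11.2% of genes in that direction.

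These calls were near the threshold. That of cpr-5 was lost in 15 of 28 alternatives, 12 of which left out 1 library, with adjusted p up to 0.144, and that of cpr-6 was lost without copper-treated mutant replicate 1 or untreated mutant replicate 2, 3 or 4 (adjusted p 0.0506 to 0.0656). With the long-depleted libraries left out, which removes replicate 4 of the copper-treated mutant and none of the untreated mutant, all 5 genes passed: cpr-5 at -1.89, cpr-1 at -0.96, cpr-6 at -0.94, cpr-4 at -0.66 and cpr-3 at 1.37, with adjusted p between 1.15e-11 and 0.00471. In that fit 1420 of the 9787 genes were called, 746 higher and 674 lower, against 219 with all libraries. In a fit to the 8 mutant libraries alone, 4 of the 5 passed, and 472 of 9530 genes were called, 361 higher and 111 lower. With library totals alone, 128 genes were called higher and 59 lower by copper in the mutant, against 174 and 45 with TMM, and the median of all genes was -0.21.

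On copper, the control had lower levels of cpr-1 and cpr-4 than without it. For cpr-1 the log2 fold change was -1.82 ± 0.35 (95% interval -2.57 to -1.08; adjusted p = 0.0138), from means of 315 ± 53.9 CPM in the copper-treated control and 1116 ± 691 CPM in the untreated control. For cpr-4 it was -1.56 ± 0.33 (-2.27 to -0.86; adjusted p = 0.0239), with 312 ± 76.5 against 921 ± 524 CPM. Of all genes, 1.32% were called lower in this comparison and 0.46% higher. The libraries of cpr-1 did not overlap, as for 2.32% of genes in that direction. The gene cpr-5, at -1.33 ± 0.43 (-2.23 to -0.42; adjusted p = 0.135), did not pass, nor did cpr-6, at -0.29 ± 0.20 (-0.70 to 0.13; adjusted p = 0.372), and cpr-3 had 0.19 ± 0.47 (-0.81 to 1.19).

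Long-depleted libraries make up 1 of the 4 copper-treated and 3 of the 4 untreated controls. Without them the values were -1.0 for cpr-1, -1.08 for cpr-4, -0.63 for cpr-5 and -0.28 for cpr-6, again against untreated control replicate 2 alone. The calls of cpr-1 and cpr-4 were both lost with limma-voom, in a fit to the control libraries alone, with the long-short balance as a covariate (-1.25 and -1.12), and without copper-treated control replicate 2, 3 or 4 or untreated control replicate 1 (-1.53 and -1.35). Among the fits with 1 library left out, that of cpr-4 was also lost without untreated control replicate 3 (-1.26). Without copper-treated control replicate 1, cpr-5 passed at -1.72 (adjusted p = 0.0466), and without untreated control replicate 2 it passed at -1.57 (adjusted p = 0.0347). With library totals alone 50 genes were called higher and 74 lower, against 45 and 129 with TMM, and the median of all genes was 0.22.

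**Figure D3:**
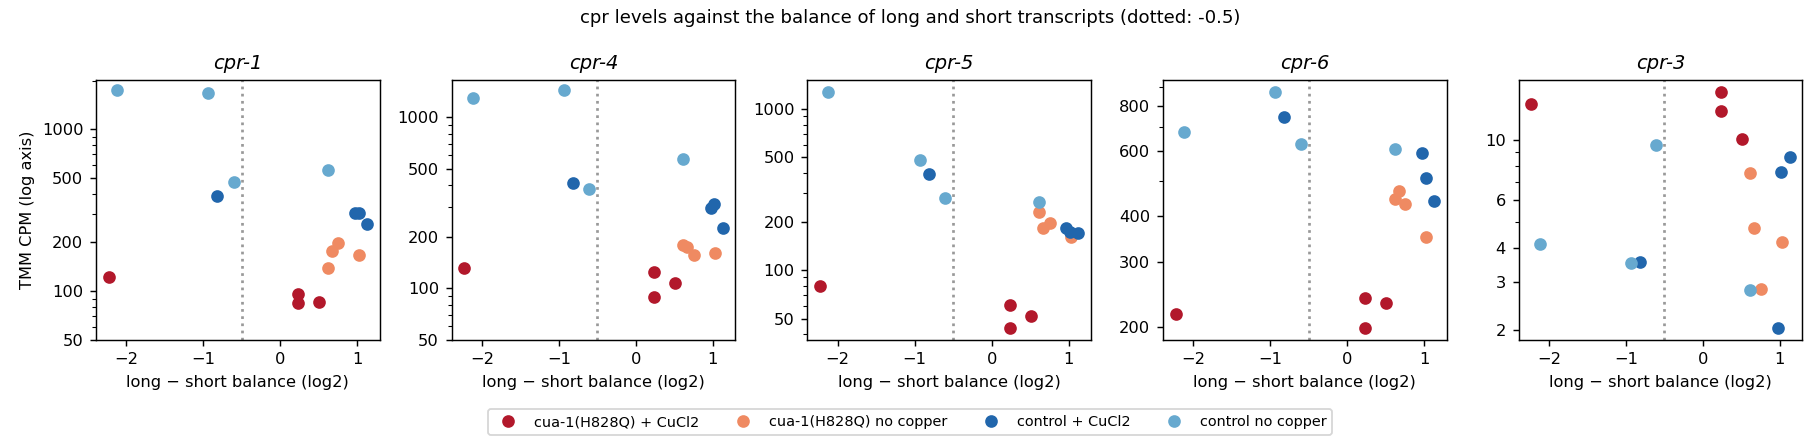
TMM CPM of each cpr gene (log axis) against the balance of long and short transcripts in the same library (median log2 CPM of genes over 3000 bp minus genes under 800 bp), with a dotted line at -0.5 that marks off the long-depleted libraries. The copper-treated mutant library at -2.23 has 123 CPM of cpr-1, the highest of its group, against 84.4 to 95.3 CPM in the rest. The copper-treated control library at -0.82 is also the highest of its group, with 390 CPM against 261 to 306 CPM. Untreated control libraries at -2.12 and -0.93 have 1741 and 1685 CPM against 563 and 473 CPM in the other 2 of that group.

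Whether copper acted to a different degree in the 2 genotypes was tested as an interaction, the mutant's copper response minus the control's. None of the 5 genes passed with edgeR, and 5.38% of all genes did. At an unadjusted p under 0.05 there were 2, cpr-4 and cpr-6, DESeq2 called 1 and limma-voom 0. By edgeR's unadjusted p, cpr-4 ranked 2676 and cpr-6 2131 among the 9787 genes, so a large share of all genes reached that threshold. The values were 1.01 ± 0.49 for cpr-1 (95% interval -0.02 to 2.04; adjusted p = 0.178), 1.0 ± 0.46 for cpr-4 (0.02 to 1.98; 0.170), -0.38 ± 0.60 for cpr-5 (-1.63 to 0.88; 0.671), -0.65 ± 0.28 for cpr-6 (-1.24 to -0.06; 0.153) and 1.22 ± 0.64 for cpr-3 (-0.13 to 2.57; 0.205). So a copper response of cpr-1 and cpr-4 that passed in the control and not in the mutant is not shown to differ between them. Without the long-depleted libraries the interaction rests on untreated control replicate 2 alone. There it was -1.26 for cpr-5, -0.66 for cpr-6 and 0.04 for cpr-1. With 1 library left out, that of cpr-5 ran from -1.13 to 0.018. With library totals alone the interaction of cpr-6 was -1.14 (adjusted p = 0.0314), where the median of all genes was -0.42 and 240 genes were called higher and 153 lower, against 402 and 125 with TMM.

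Both factors together, the copper-treated mutant against the untreated control, gave the widest differences. The level of cpr-1 was 11.5-fold lower (log2 -3.52 ± 0.38, adjusted p = 9.22e-05) and that of cpr-5 9.79-fold lower (-3.29 ± 0.46, adjusted p = 0.000549). For cpr-4 it was 8.13-fold lower (-3.02 ± 0.35, adjusted p = 0.000203) and for cpr-6 3.15-fold lower (-1.65 ± 0.20, adjusted p = 0.000208). In this comparison 1.31% of genes were called lower, 5 had a lower log2 fold change than cpr-1, and all 4 calls held in each of the 28 alternatives. No libraries of these 4 genes overlapped, as for 2.7% of genes in that direction. The value of cpr-3 was 1.41 ± 0.45 (adjusted p = 0.0781), and it passed in 6 of 28 alternatives. The middle of the order was not resolved: between the untreated mutant and the copper-treated control none of the 5 passed with edgeR, where 3.57% of all genes were called, 3 of the cpr genes had an unadjusted p under 0.05, and DESeq2 and limma-voom called 0. By edgeR's unadjusted p those 3 ranked 844 (cpr-4), 976 (cpr-1) and 1394 (cpr-6) among the 9787 genes, so many other genes reached that threshold. The libraries of cpr-1 (-0.88 ± 0.35, adjusted p = 0.206) and cpr-4 (-0.89 ± 0.33, adjusted p = 0.172) did not overlap between these groups, as for 6.52% of genes in that direction. With all libraries 349 genes were called here, 35 of them lower, and 1607 and 443 without the long-depleted libraries, where both genes passed. There the copper-treated mutant, set against untreated control replicate 2, had log2 values of -2.73 for cpr-1, -2.40 for cpr-5, -2.48 for cpr-4 and -1.51 for cpr-6, all 4 called, and cpr-3 passed at 2.09 (adjusted p = 0.0236). That fit called 1575 genes in this comparison, 496 of them lower, against 597 and 128 with all libraries. Leaving out untreated control replicate 1 alone took cpr-5 to -2.54.

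The genes differed in how closely they moved together. As a measure of likeness, the root-mean-square difference of log2 CPM over the 16 libraries was used, with each gene centred on its own mean. Between cpr-1 and cpr-4 it was 0.24, and 0 of the 9786 other genes were closer to either. It was 0.56 from cpr-5 to both, 0.67 from cpr-4 to cpr-6, 0.81 from cpr-1 to cpr-6 and 1.87 from cpr-1 to cpr-3, against a median over all genes of 1.44 for cpr-1. For cpr-6 that median was 0.87, so its distances to the others were less unusual. Of the 9786 genes, 4283 were closer to cpr-6 than cpr-1 was, 2288 than cpr-4 and 2537 than cpr-5. All genes of a library share its depth and its balance of long and short transcripts, so the measure is a description.

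Outside the 6 genes, the closest patterns to cpr-1 were T12D8.5 (0.50), spp-4 (0.65), of the saposin-like family, and thn-2 (0.66), of the thaumatin family. To cpr-4 they were T12D8.5 (0.52), F57F5.1 (0.53), which carries the name cpr-9 in RefSeq, and thn-2 (0.55). For cpr-5 they were spp-4 (0.44), C40H1.7 (0.47) and dct-16 (0.52). The pattern of cpr-6 was nearest to cpz-1 (0.22), the cathepsin Z gene, followed by cyp-37A1 (0.26), a cytochrome P450 gene, and ilys-5 (0.33), an invertebrate lysozyme gene. The nearest to cpr-3 were Y47D7A.6 (0.47), F19B2.5 (0.48) and gsto-1 (0.50), an omega-class glutathione transferase gene, with 0.98 as its median over all genes.

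Ratios of read counts between 2 genes of the same library do not depend on the normalization. The ratio of cpr-1 to cpr-4 lay between 0.766 and 0.942 in the copper-treated mutant, 0.779 and 1.26 in the untreated mutant, then 0.946 and 1.15 in the copper-treated control and 0.983 and 1.35 in the untreated control. That of cpr-1 to cpr-5 was 1.54 to 1.93 in the copper-treated mutant and 0.609 to 1.05 in the untreated mutant, which do not overlap, against 0.985 to 1.78 in the copper-treated control and 1.36 to 3.48 in the untreated control. The untreated mutant thus held more cpr-5 for its cpr-1 than the other groups, with the exception of the long-depleted copper-treated control library at 0.985.

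The ratio of cpr-1 to cpr-6 was 0.370 to 0.568 in the copper-treated mutant, 0.313 to 0.478 in the untreated mutant, 0.511 to 0.601 in the copper-treated control and 0.750 to 2.57 in the untreated control. Only the untreated control lay apart from all other groups. The ratio of cpr-3 to cpr-6 was 0.0434 to 0.0644 in the copper-treated mutant, 0.00655 to 0.0170 in the untreated mutant, 0.00342 to 0.0197 in the copper-treated control and 0.00404 to 0.0152 in the untreated control, so that the copper-treated mutant lay apart from the rest. It rests on 6 to 63 reads of cpr-3 per library. For these ratios and those above, how many other gene pairs would separate in this way was not counted.

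**Figure D4:**
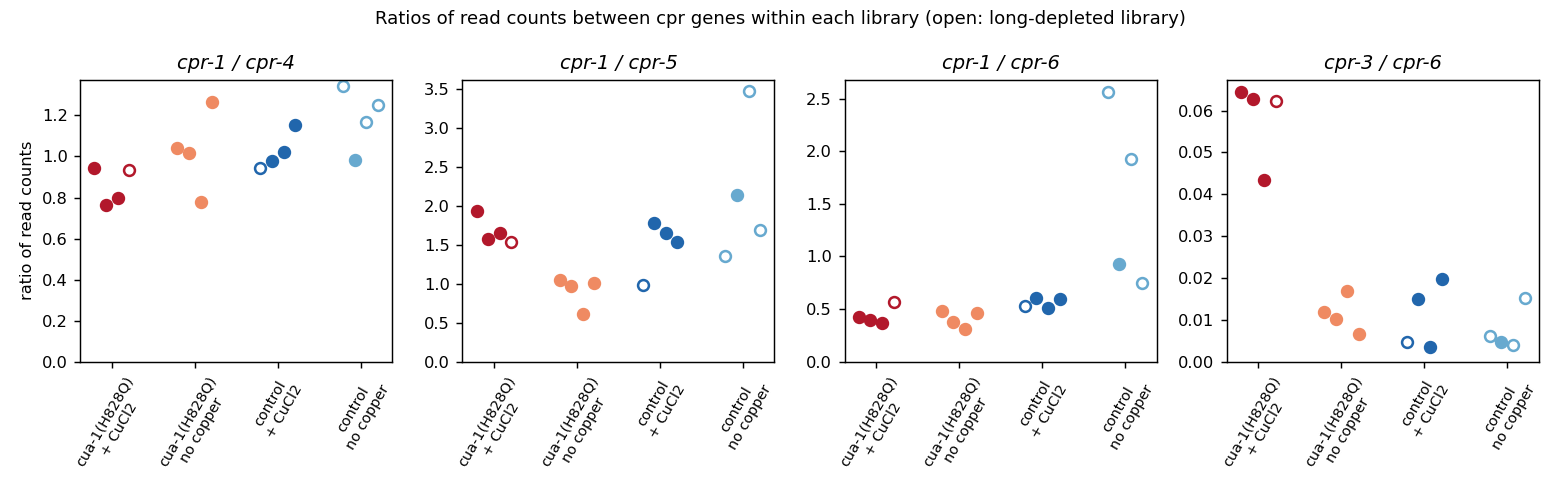
Ratio of the read counts of cpr gene pairs within each library (linear axes from 0), by group; open symbols are long-depleted libraries. The ratio of cpr-1 to cpr-4 stays between 0.766 and 1.35 over all 16 libraries, and that of cpr-3 to cpr-6 is at least 0.0434 in the copper-treated mutant and at most 0.0197 elsewhere.

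The intestine itself was read from 17 marker genes, none of them at 0 in a group. Their summed level was 1221 to 1507 CPM in the copper-treated mutant, 1002 to 1114 in the untreated mutant, 901 to 1352 in the copper-treated control and 826 to 1706 in the untreated control. These ranges overlap, except that the copper-treated mutant lay above the untreated mutant. A large part of the sum was act-5, with 644 CPM of a mean sum of 1340 in the copper-treated mutant and 462 of 1053 in the untreated mutant. In the copper-treated control it was 538 of 1046 CPM and in the untreated control 677 of 1192 CPM. Single markers did change. Of the 15 that passed the filter, 4 were higher in the untreated mutant than in the untreated control: the peptide transporter gene pept-1 (1.46 ± 0.39), the acid phosphatase gene pho-1 (1.21 ± 0.29), haf-9 (1.75 ± 0.37) and ifp-1 (3.02 ± 1.05), with adjusted p of 0.0482 or less by edgeR. The value of ifp-1 lies near the floor, with 5 reads over the untreated control group. These 4 are given with all libraries only, where 3 of the 4 untreated controls are long-depleted. The transcription factor gene elt-7 was lower, and the median over the 15 was 0.13. On copper 3 were higher in the mutant than in the control and 0 lower, with a median of 0.30: the intermediate filament genes ifb-2 (1.28 ± 0.21) and ifc-2 (1.19 ± 0.26), and pgp-1 (2.58 ± 0.50), with adjusted p of 0.00907 or less. In the copper-treated mutant against the untreated one, ifb-2 and pgp-1 were higher and 0 were lower. The part of these changes in the ratio to the marker sum was not tested. Divided by this sum, the level of the 6 cpr genes was 0.351 to 0.392 in the copper-treated mutant, 0.844 to 0.963 in the untreated mutant, 1.13 to 1.53 in the copper-treated control and 1.65 to 3.87 in the untreated control, with no overlap between any of the groups. How many other genes would separate in this way was not counted.

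The gut esterase gene ges-1 and the microvillar actin gene act-5 were not called by edgeR with all libraries in any of the 6 comparisons or the interaction, and act-5 averaged 644 ± 213 CPM in the copper-treated mutant, 462 ± 41.2 in the untreated mutant, 538 ± 202 in the copper-treated control and 677 ± 379 in the untreated control. Without the long-depleted libraries, the log2 fold change of act-5 was 0.495 in the copper-treated mutant against untreated control replicate 2. The GATA factor gene elt-2 was not called by edgeR with all libraries either, with 15.5 ± 2.85 CPM in the copper-treated mutant, 6.19 ± 1.13 in the untreated mutant, 8.45 ± 1.77 in the copper-treated control and 7.43 ± 4.52 in the untreated control. It was called in other fits. Without the long-depleted libraries edgeR had it higher in the mutant than in the control on copper (0.81, adjusted p = 0.0207). It was also higher in the copper-treated mutant than in the untreated one (1.39, adjusted p = 7.83e-05), and DESeq2 called this last difference too (1.28, adjusted p = 0.0184). Against untreated control replicate 2 alone, elt-2 was -1.09 in the untreated mutant, and its interaction, which rests on the same library, was 1.89. That library had 12.8 CPM of elt-2, against 1.84, 8.38 and 6.74 CPM in untreated control replicates 1, 3 and 4. The related gene elt-7 was lower in the untreated mutant than in the untreated control, at -1.58 ± 0.48 (adjusted p = 0.0317, edgeR), with 2.38 ± 1.10 against 7.11 ± 3.74 CPM. Without the long-depleted libraries it was at -2.0, against untreated control replicate 2 alone. The call of elt-7 was lost in 8 of 28 alternatives. Its interaction passed with DESeq2 (2.12, adjusted p = 0.0344). Without the long-depleted libraries it was 2.16, again with untreated control replicate 2 alone. Of other tissues, summed markers of oocytes and germline were 7717 to 9394 CPM in the copper-treated mutant, 6793 to 7415 in the untreated mutant, 8070 to 12594 in the copper-treated control and 9573 to 12378 in the untreated control, and those of neurons were 549 to 690 CPM in the copper-treated mutant, 347 to 418 in the untreated mutant, 276 to 466 in the copper-treated control and 277 to 517 in the untreated control. Summed markers of the pharynx were 72.6 to 99.6 CPM in the copper-treated mutant and 79.0 to 110 CPM in the untreated mutant, against 48.8 to 62.5 CPM in the copper-treated control and 23.0 to 52.2 CPM in the untreated control, so the genotypes did not overlap. Among single genes, 16.4% did not overlap in that direction with no added copper and 11.3% on copper. Of the 10 pharynx markers, 2 were at 0 in the copper-treated control and 1 in each of the other groups. Markers of body wall muscle summed to 7041 to 10571 CPM in the copper-treated mutant, 6396 to 6693 in the untreated mutant, 4466 to 7167 in the copper-treated control and 4918 to 13377 in the untreated control. For the hypodermis, the skin of the worm, the sums were 7169 to 13239 CPM in the copper-treated mutant, 5287 to 6972 in the untreated mutant, 4322 to 9257 in the copper-treated control and 3542 to 13244 in the untreated control. With no added copper, edgeR called 3 of 7 tested pharynx markers, 3 of 13 muscle markers and 4 of 13 neuron markers higher in the mutant than in the control, and 1 muscle marker, 1 neuron marker, 1 of 8 hypodermis markers and 5 of 14 germline markers lower. Over all genes, 9.39% were called higher and 12.5% lower in that comparison, and 6.39% and 0.542% on copper. On copper it called 1 pharynx, 4 neuron and 4 hypodermis markers higher, with a median log2 fold change of 3.34 over the 8 hypodermis markers, and none of these 5 lists had a marker called lower. Calls in these 5 lists are given with all libraries only, where 3 of the 4 untreated controls are long-depleted. The part of these shifts in tissue content in the cpr values was not tested.

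Other papain-family genes did not all move like the cpr genes. Of 22 such genes on a list, 11 passed the filter. With no added copper 3 were higher in the mutant than in the control and 2 lower, with a median log2 fold change of 0.48 over the 11 and 0.0022 over all genes. Of all genes, 9.39% were called higher and 12.5% lower in that comparison. Lower were cpl-1, the cathepsin L gene (-1.23 ± 0.34, adjusted p = 0.0247), with 366 ± 20.1 CPM in the untreated mutant and 860 ± 504 CPM in the untreated control, and F57F5.1 (-1.25 ± 0.30, adjusted p = 0.0140). Both calls were lost without the long-depleted libraries, at -0.21 and -0.63. Higher were R07E3.1 (1.4 ± 0.25, adjusted p = 0.00288), the cathepsin Z gene cpz-2 (1.42 ± 0.40, adjusted p = 0.0247) and R09F10.1. Without the long-depleted libraries 2 of the 11 were higher and 0 lower.

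On copper the mutant had 4 of the 11 lower than the control and 0 higher, with a median of -0.81 against -0.04 over all genes. These were Y40H7A.10 (-2.37 ± 0.40), cpr-8 (-1.75 ± 0.34), which lies 566 bp from cpr-5 on the opposite strand, cpz-1 (-1.09 ± 0.22) and F32H5.1 (-1.04 ± 0.22), with adjusted p between 0.00147 and 0.00769. Of all genes, 0.542% were called lower and 6.39% higher in that comparison. Without the long-depleted libraries 6 of the 11 were lower and 2 higher, in a fit that called more of all genes in both directions. With all libraries the same 4 genes, Y40H7A.10, cpr-8, cpz-1 and F32H5.1, were lower in the copper-treated mutant than in the untreated mutant. There the median was -0.54 against 0.02 over all genes, and 0.46% of all genes were called lower. For cpr-8 the levels were 8.66 ± 3.25 CPM in the copper-treated mutant, 27.3 ± 5.18 in the untreated mutant, 29.5 ± 5.81 in the copper-treated control and 20.8 ± 9.28 in the untreated control. In the control 0 of the 11 changed with copper by edgeR (3 at an unadjusted p under 0.05, DESeq2 2, limma-voom 0). The share of all genes at that unadjusted p was not counted. The interaction was called for 3, Y40H7A.10 (-2.86 ± 0.53), cpr-8 (-2.15 ± 0.47) and F32H5.1 (-1.58 ± 0.31), all with a copper response lower in the mutant than in the control. Of all genes, 1.28% were called in that direction. Without the long-depleted libraries, with untreated control replicate 2 alone, the values were -2.20 for Y40H7A.10, -2.06 for cpr-8 and -1.67 for F32H5.1.

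**Figure D5:**
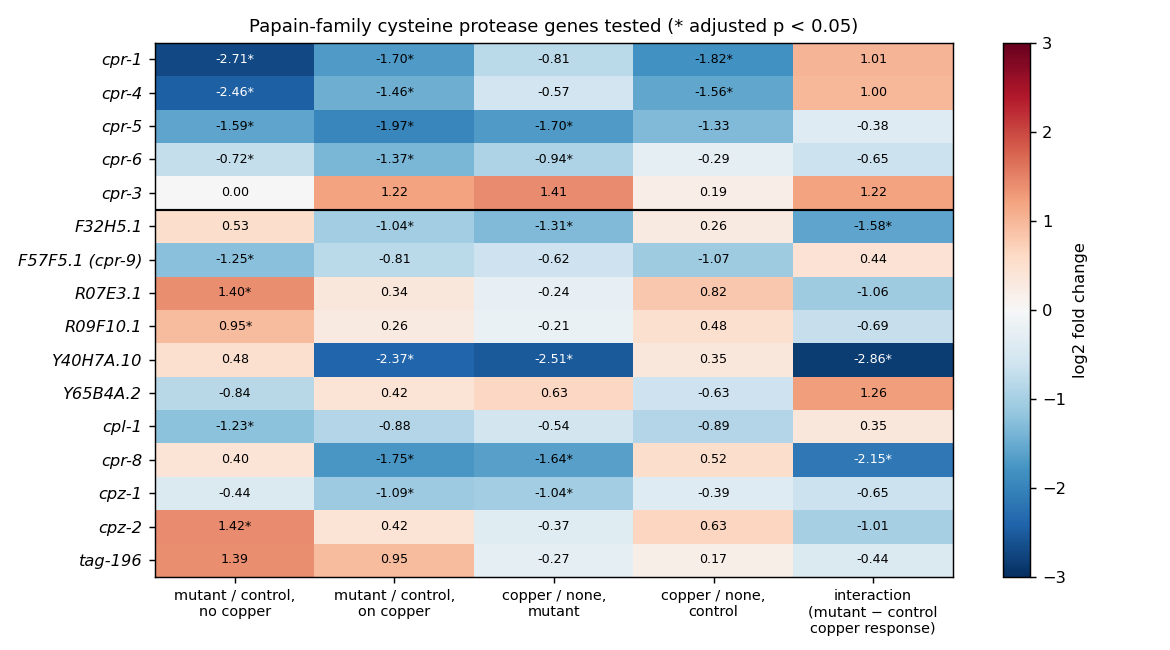
Log2 fold changes of the 5 tested cpr genes (above the line) and 11 other papain-family genes in each comparison, with an asterisk where the adjusted p was under 0.05. The cpr genes other than cpr-3 are negative in all 4 comparisons, whereas the other family members are split in the mutant without copper and 4 of them are lower in the mutant on copper.

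With all libraries, edgeR made 1 call among the 2 cystatin genes over the 6 comparisons and the interaction, cpi-2, lower in the mutant than in the control with no added copper (-0.87 ± 0.25, adjusted p = 0.0275), with 80.3 ± 5.01 against 147 ± 42.8 CPM, which was lost without the long-depleted libraries (adjusted p = 0.243). The gene cpi-1, with 30.8 ± 10.4 CPM in the copper-treated mutant, 45.7 ± 11.5 in the untreated mutant, 22.3 ± 3.46 in the copper-treated control and 38 ± 13.1 in the untreated control, was not called there. Without the long-depleted libraries it was lower in the copper-treated mutant than in the untreated mutant (-0.84, adjusted p = 0.00114) and higher in the untreated mutant than in the copper-treated control (1.05, adjusted p = 0.000165), and DESeq2 called the second of these (1.01, adjusted p = 0.0105). Among 11 tested aspartyl protease genes, the other large class of gut proteases, 7 were lower and 1 higher with no added copper in the mutant than in the control (4 and 1 without the long-depleted libraries). Of all genes, 12.5% were called lower and 9.39% higher there with all libraries. On copper 0 were lower and 3 higher in the mutant than in the control, where 0.542% and 6.39% of all genes were called. The 3 were asp-8 (2.6 ± 0.49), asp-12 (3.12 ± 0.27) and asp-14 (2.90 ± 0.37). Without the long-depleted libraries 3 were lower and 7 higher on copper, in a fit that called more of all genes in both directions. Of 15 tested lysosomal membrane and enzyme genes, 4 were higher and 3 lower in the untreated mutant than in the untreated control, and 0 higher and 2 lower, nuc-1 and gba-4, in the copper-treated mutant than in the copper-treated control. The shares of all genes are those given above for the aspartyl protease genes. The call of gba-4 on copper was lost in 18 of 28 alternatives (adjusted p up to 0.164) and that of nuc-1 in 2 (up to 0.0668). Without the long-depleted libraries these counts were 0 higher and 1 lower with no added copper, and 3 higher and 2 lower on copper.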

How the data were processed

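RNA of whole worms was measured in 16 libraries, 4 per group. The authors deposited raw read counts per gene with no normalization. The build was ce11, and HTSeq, STAR 2.6.0a and bcl2fastq were used, per the submitters' processing notes. Their settings, the annotation release and the strand setting are not given in the sources used here. Columns were matched to samples by heading, and 0 were left without a sample. The labels call the samples biological replicates. A chi-square test of counts found every pair of replicates to differ beyond sampling noise.

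The test was that of edgeR 4.0.16, in R 4.3.3 with limma 3.58.1, with TMM factors, filterByExpr, a model of 4 group means (16 libraries, residual degrees of freedom 12), the robust quasi-likelihood test, and Benjamini-Hochberg adjustment over the 9787 genes tested, with calls at an adjusted p under 0.05. Log2 fold changes carry the model's standard error and CPM values the SD of 4 libraries. The fit was tested on simulated data. A floor of 3 counts covers counting error only. A group of 4 libraries against 4 was called not overlapping where every value of one lay beyond every value of the other.

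Named were all 6 cpr genes, for each tested one the 3 closest patterns, up to 4 called genes of each list by adjusted p, and cpl-1, cpz-1, cpz-2, cpi-1, cpi-2, elt-2, elt-7, ges-1 and act-5. The genes and lists were chosen with earlier results of these data known. The gene mif-2 was added after its values were seen. Gene positions came from an Ensembl annotation of WBcel235.

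Alternatives were upper-quartile factors or DESeq2 size factors, limma-voom, DESeq2 1.42.0, dropping the filter down to 1 count, a stricter filter (CPM of 5 or more in 4 libraries), a replicate block, the libraries of a comparison alone, length offsets (lowess span 0.3), the long-short balance as a covariate, the fit without the 5 long-depleted libraries, and each of the 16 libraries left out in turn. Library totals without factors were added after the data were seen.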

Additional observations from a re-analysis of the deposited data

Results flagged for a closer look

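In the copper-treated control, cpr-5 had 396 CPM in replicate 1 and 170 to 184 CPM in the other 3 libraries. The gap to the nearest of them was 0.938 of the group's range, above Dixon's 95% value of 0.829 for 4 samples. This was 1 of 20 groups looked at, and chance flags about 1 in 20. The library is one of the 5 long-depleted ones; its part in the value was not tested. Without it the log2 fold change of cpr-5 between the copper-treated and the untreated control was -1.72 (adjusted p = 0.0466, edgeR), against -1.33 with it (adjusted p = 0.135).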

How the results depend on the processing

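The number of cpr genes called was 4 in the mutant against the control on copper and 4 in the copper-treated mutant against the untreated control, and in the 28 alternatives it stayed at 4 or 5 in both. For the mutant without copper it was 4, and 3 with no filter beyond 1 count and with the balance covariate, 2 with library totals alone, and 2 to 4 with 1 library left out. For copper in the control it was 2, and 0 with limma-voom, with the libraries of the comparison alone and with the balance covariate, 1 with the replicate block, which ended the call of cpr-4 (-1.49), and 0 to 3 with 1 library left out, the fit with 1 untreated control library aside. For copper in the mutant it was 2, and 1 with upper-quartile factors, with the stricter filter and with the replicate block, 3 with DESeq2 and with the covariate, 4 with the libraries of the comparison alone, 5 without the long-depleted libraries, and 0 to 2 with 1 library left out. For the interaction it was 0, and 1 with DESeq2, with the covariate and with library totals, and 0 to 0 with 1 library left out, the fit with 1 untreated control library aside. In the untreated mutant against the copper-treated control it was 0, and 2 with the libraries of the comparison alone and without the long-depleted libraries. With 1 library left out it was 0 there, 4 in the mutant against the control on copper, and 4 to 5 in the copper-treated mutant against the untreated control. Except where a fit holds fewer libraries by construction, the cause was not tested.

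Some directions reversed. For the mutant against the control without copper, cpr-3 was -0.00, against 0.031 with DESeq2 factors, 0.11 without a filter, 0.0096 with the stricter filter, 0.029 with DESeq2, 0.089 with limma-voom, 0.036 with the comparison's libraries alone, 0.091 with the replicate block, 0.0016 with the covariate, 0.72 without the long-depleted libraries, 0.50 with library totals, and -0.29 to 0.48 with 1 library left out. With 1 library left out, cpr-3 was -0.18 to 0.67 for copper in the control and -0.48 to 0.17 in the untreated mutant against the copper-treated control. There cpr-5 was -0.39 to 0.13, and 0.12 without the long-depleted libraries. Its interaction was -1.13 to 0.018 with 1 library left out. The aspartyl protease gene asp-2 was -0.79 (called, adjusted p = 0.0358) for the mutant without copper and 0.027 without the long-depleted libraries.

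A check for pairing by replicate number could not settle it, since the long-depleted libraries stand apart within their groups. Correlations of same-numbered libraries' deviations over 24 pairs ran from -0.597 to 0.554, 6 were over 0.1, and 1 of 16 libraries correlated best with its own number. Depth limits cpr-2 and cpr-3, with 6 to 63 reads of cpr-3 per library, and the untreated control limits every value that involves it, since 3 of its 4 libraries are long-depleted.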
